A study of Mus musculus with 4 samples.

Results

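The Frizzled receptors are the 10 genes Fzd1 to Fzd10, which encode the cell surface receptors for Wnt proteins. They were taken by name from the gene family, and their probes were found by the RefSeq accession that the array files give for each probe. All 10 had at least 1 probe, out of 22911 genes matched in this way, and Fzd5 had 2 probes, so that 11 probes were read. Matching by accession matters here because Fzd10 is also an older synonym of Fzd2. The members were chosen by family name with their log2 ratios on these arrays already known, so their levels and differences are given as a description, with no test.

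The cells were MC3T3-E1, a mouse osteoblastic line derived from calvaria, labelled as osteoblasts. The 4 groups were cells given Miglustat at 50 µM, D-PDMP at 10 µM or D-PPMP at 1.0 µM, and Control cells, each on 1 Agilent one-colour array. Treatment lasted 4 days, after which cells were plated again and grown for 24 h before harvest. Each compound blocks glucosylceramide synthase, which adds glucose to ceramide. Miglustat is an iminosugar, whereas D-PDMP and D-PPMP are ceramide analogues that share a morpholine ring and differ in the length of the fatty acyl chain. Their doses differed, so their values are given side by side and the compounds are not compared with each other. The study is of a single cell line with no genetic change, and the labels describe no vehicle for the Control.

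Frizzled proteins are serpentine membrane receptors that bind Wnts through a cysteine-rich domain outside the cell. With the coreceptors Lrp5 and Lrp6 they stop the breakdown of beta-catenin through Dishevelled, and with Ror or Ryk receptors they act on planar cell polarity or on calcium. By sequence the family falls into the branches Fzd1, Fzd2 and Fzd7; Fzd5 and Fzd8; Fzd4, Fzd9 and Fzd10; and Fzd3 and Fzd6. In osteoblasts, Wnt signals through these receptors promote bone formation, and mice that lack Fzd9 form less bone.

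Promoter windows of 4 receptors are shown because Fzd5, Fzd7 and Fzd9 had their highest level on the same array, whereas Fzd4 had its lowest there. The RefSeq table for GRCm38.p6 held 6 of the 10 genes, of which Fzd1 and Fzd10 are not shown. Fzd2, Fzd3 and Fzd8 also had their highest level on that array but were not in the table. Each sequence is the 250 bases before the gene's start, read 5′ to 3′ along the gene. Capitals mark matches to GGGCGG, the GC box, or to CTTTGTT, a core of the TCF/LEF site, on either strand, and matches that overlap are counted apart. The windows are chr1:64737751-64738000 on the minus strand for Fzd5, chr1:59481897-59482146 on the plus strand for Fzd7, chr5:135251048-135251297 on the minus strand for Fzd9 and chr7:89404116-89404365 on the plus strand for Fzd4.
Fzd5: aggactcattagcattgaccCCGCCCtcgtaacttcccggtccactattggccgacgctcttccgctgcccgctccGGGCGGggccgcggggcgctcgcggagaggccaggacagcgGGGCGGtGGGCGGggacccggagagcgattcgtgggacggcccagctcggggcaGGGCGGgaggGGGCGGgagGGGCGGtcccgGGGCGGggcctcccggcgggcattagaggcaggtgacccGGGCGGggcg
Fzd7: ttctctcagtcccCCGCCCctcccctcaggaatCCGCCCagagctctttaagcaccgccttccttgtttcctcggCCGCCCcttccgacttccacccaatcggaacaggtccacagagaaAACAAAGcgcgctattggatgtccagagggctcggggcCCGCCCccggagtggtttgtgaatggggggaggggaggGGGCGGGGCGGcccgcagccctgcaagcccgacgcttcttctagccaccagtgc
Fzd9: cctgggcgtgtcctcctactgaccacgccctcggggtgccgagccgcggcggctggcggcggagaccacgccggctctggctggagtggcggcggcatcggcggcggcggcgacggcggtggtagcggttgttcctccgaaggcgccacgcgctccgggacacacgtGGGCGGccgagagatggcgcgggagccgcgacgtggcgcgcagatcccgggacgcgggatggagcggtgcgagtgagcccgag
Fzd4: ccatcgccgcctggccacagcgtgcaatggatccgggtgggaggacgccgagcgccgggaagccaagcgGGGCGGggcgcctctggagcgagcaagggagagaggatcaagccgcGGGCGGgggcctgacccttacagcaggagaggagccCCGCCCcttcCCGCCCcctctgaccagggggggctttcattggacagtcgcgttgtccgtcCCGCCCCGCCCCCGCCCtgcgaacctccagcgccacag
Fzd5 held 9 GC boxes, Fzd7 held 6, Fzd9 held 1 and Fzd4 held 7, where 32.7% of the 32851 windows of this length held at least 1. The G and C content was 76.4% for Fzd5, 65.2% for Fzd7, 76.4% for Fzd9 and 72.8% for Fzd4, against a median of 52.4% over all windows. CTTTGTT was found once, in Fzd7 (5.03% of windows hold it), and its other form CTTTGAA in none of these 4 (4.46% of windows). TATAAA was in none of the 4 (12.4% of windows), and CCAAT was in Fzd5, Fzd7 and Fzd4 (33.8% of windows). Of the windows not shown, Fzd1 held no GC box, 51.2% G and C, and 1 TATAAA. Fzd10 held 1 GC box, 76.4% G and C, and no TATAAA. A match of letters is a description of the window and not a binding site.

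On the arrays, 9 of the 10 receptors were well above background in every group, and Fzd10 in none. Of the 22911 matched genes 14003 were so in every group. Levels are log2 of the spot signal after the array's 75th percentile was set to 0, so that a step of 1 is a doubling, and a level is compared only between arrays and not between genes. Between 60.2% and 62.4% of all probes were well above background with the inhibitors, and 57.4% in Control, and no spot was saturated. The number of arrays limits the precision, and the spread between cultures is not known. Error within an array is described in 2 ways. The median SD of 10 repeat spots of a probe was between 0.030 and 0.037 on the log2 scale for bright probes, and the scanner software's own error of a log2 ratio had a median of 0.204. The second is given as ± after each ratio. It comes from the software and not from repeat spots, and was nearly the same for bright genes, as 0.2041 for Fzd1 and 0.204 for Fzd2. Lying within or beyond it is therefore a description and not a test. All 4 arrays lay on 1 slide, and position on the slide cannot be told apart from the group. In RNA from whole cultures, fewer cells that express a gene and less RNA per cell cannot be told apart.

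Of 11 osteoblast markers, Runx2, Col1a1, Col1a2, Spp1, Sparc and Sp7 were well above background on all 4 arrays, whereas Alpl, Ibsp and Dmp1 were on none. Bglap, osteocalcin, was so with D-PDMP and D-PPMP alone, and Phex on every array except Miglustat. Among the 6 measured throughout, Sp7 and Spp1 passed 1.5-fold with Miglustat, a size no Frizzled gene reached, where 2.68% of all genes did. None of the 6 did with D-PDMP or D-PPMP, where 2.54% and 3.44% of all genes did. Sp7, a transcription factor of osteoblasts, had log2 ratios to Control of 0.74, 0.02 and -0.44 with Miglustat, D-PDMP and D-PPMP. Spp1, osteopontin, had ratios of -0.66, 0.19 and 0.38. Under the normexp alternative Sp7 with Miglustat was at 0.24, below that size, while Spp1 stayed past it at -0.64. With D-PPMP Sp7 did pass 1.5-fold under quantile (-0.62) and cyclic loess (-0.64) processing. With the mean over its probes Sp7 was at 0.03 with D-PPMP and at 1.23 with Miglustat.

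The lists for other cell types held 5 markers each. Of the endothelial markers Cdh5, Kdr, Tek and Vwf were well above background on no array, but Pecam1, an adhesion molecule, was on all 4, at log2 ratios of 0.23, 0.60 and 0.61 with Miglustat, D-PDMP and D-PPMP. The last pair were 1.52-fold and 1.53-fold above Control, and fell short of 1.5-fold under normexp, quantile and cyclic loess processing. Of the muscle markers Acta1, skeletal alpha-actin, was measured at levels of 4.32, 4.12 and 4.19 with Miglustat, D-PDMP and D-PPMP and 4.19 in Control, and Myod1, Myog, Myf5 and Ckm were on no array. Of the adipocyte markers Fabp4 was measured on all 4 arrays, at ratios of 0.51, 0.25 and 0.05, as was Lep, at 0.37, 0.36 and 0.44. Adipoq was well above background with D-PPMP alone, and Plin1 and Cfd on no array.

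Of the macrophage markers Csf1r and Cd68 were measured on all 4 arrays, at ratios of 0.05, -0.24 and -0.23 for Csf1r and 0.00, 0.09 and 0.24 for Cd68, and Ptprc, Adgre1 and Tyrobp on none. Of the cartilage markers Col2a1, the main collagen of cartilage, had levels of 6.43 with Miglustat, 5.77 with D-PDMP, 5.70 with D-PPMP and 6.05 in Control. Col9a1 was well above background on every array except D-PDMP, and Matn3 on every array except D-PPMP, while Acan and Col10a1 were on none. The part of these genes in the Frizzled values was not tested.

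Fzd7, a receptor of beta-catenin signalling known from stem cells and early embryos, had levels of 0.77 with Miglustat, 0.27 with D-PDMP and 0.21 on the D-PPMP array, against 0.45 in Control. The Miglustat array was the highest of the 4, and the D-PDMP and D-PPMP arrays were both below Control. Its log2 ratio to Control was 0.32 ± 0.20 with Miglustat, or 1.25-fold higher, and -0.18 ± 0.20 with D-PDMP and -0.24 ± 0.20 on the D-PPMP array. Of the 14171 genes measured with Miglustat, 10.4% lay at least as far from Control as Fzd7.

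In the same branch, Fzd1 and Fzd2 differed less between arrays. Fzd2, a receptor that also takes part in Wnt5a signalling, had levels of 3.95 with Miglustat, 3.74 with D-PDMP and 3.82 on the D-PPMP array, against 3.94 in Control. Each of its ratios lay within the scanner's error, the farthest being -0.20 ± 0.20 with D-PDMP. Fzd1, a receptor of beta-catenin signalling, had levels of 1.74 with Miglustat, 1.80 with D-PDMP, 1.77 with D-PPMP and 1.69 in Control. Its span from the lowest to the highest array was 0.11, the smallest of the 9 measured receptors, so that no 2 of its arrays differed beyond the error.

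Fzd5, a receptor known for roles in the eye and the gut, had levels of -2.62 with Miglustat, -3.32 with D-PDMP and -3.30 on the D-PPMP array on its brighter probe, against -2.90 in Control. Miglustat was again the highest array, and D-PDMP and D-PPMP lay next to each other below Control. The log2 ratios to Control were 0.28 ± 0.22, -0.42 ± 0.22 and -0.40 ± 0.22 with Miglustat, D-PDMP and D-PPMP, or 1.21-fold higher, 1.34-fold lower and 1.32-fold lower. Its span of 0.70 ± 0.22 was the widest of the family. On the dimmer probe of the same gene the ratios had the same signs but were smaller, at 0.15 ± 0.24, -0.12 ± 0.24 and -0.20 ± 0.25, each within the scanner's error.

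Fzd8, the nearest relative of Fzd5, had levels of -0.98 with Miglustat, -1.53 with D-PDMP and -1.58 on the D-PPMP array, against -1.20 in Control. The order of its arrays was Miglustat, Control, D-PDMP and D-PPMP, and the last pair differed by 0.06, well within the error of 0.21. The ratios to Control were 0.22 ± 0.21 with Miglustat, -0.33 ± 0.21 with D-PDMP and -0.39 ± 0.21 on the D-PPMP array. With D-PPMP 9.01% of all measured genes lay as far from Control or farther.

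Fzd9, the receptor needed for normal bone formation in mice, had levels of -1.62 with Miglustat, -2.12 with D-PDMP and -1.99 on the D-PPMP array, against -1.81 in Control. Miglustat stood highest and D-PDMP lowest, 0.50 ± 0.21 apart, although neighbouring arrays in that order differed by less than the error. Its ratios to Control were 0.19 ± 0.21, -0.31 ± 0.21 and -0.18 ± 0.21.

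Fzd4, which binds Norrin as well as Wnts and is best known from retinal vessels, ran otherwise. Its levels were -1.80 with Miglustat, -1.18 with D-PDMP and -1.64 on the D-PPMP array, against -1.39 in Control. Here the Miglustat array was the lowest and the D-PDMP array the highest, 0.62 ± 0.21 apart. The ratios to Control were -0.41 ± 0.21 with Miglustat, or 1.33-fold lower, 0.21 ± 0.21 with D-PDMP and -0.25 ± 0.21 on the D-PPMP array. With Miglustat 6.2% of all measured genes were as far from Control or farther. Fzd10, of the same branch, had signals of 1.02, 1.03 and 1.02 with Miglustat, D-PDMP and D-PPMP and 1.11 in Control. The lowest signal well above background on these arrays was between 4.61 and 4.83, so no ratio is given for Fzd10.

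Fzd6, known from planar cell polarity in skin and hair, had levels of -2.12 with Miglustat, -2.25 with D-PDMP and -1.86 on the D-PPMP array, against -1.94 in Control. D-PDMP gave its lowest array, at a ratio of -0.32 ± 0.21, while those of Miglustat and D-PPMP, -0.18 ± 0.21 and 0.08 ± 0.21, lay within the error. The sign of the D-PPMP ratio turned negative under normexp, quantile and cyclic loess processing, -0.05 at the lowest. Fzd3, known from axon guidance, lay near background, with signals of 7.01, 6.06 and 5.59 with Miglustat, D-PDMP and D-PPMP and 6.56 in Control. Its ratios of 0.03 ± 0.38, -0.17 ± 0.40 and -0.28 ± 0.41 were all within the error, and the sign with Miglustat turned under the same 3 alternatives.

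**Figure D1:**
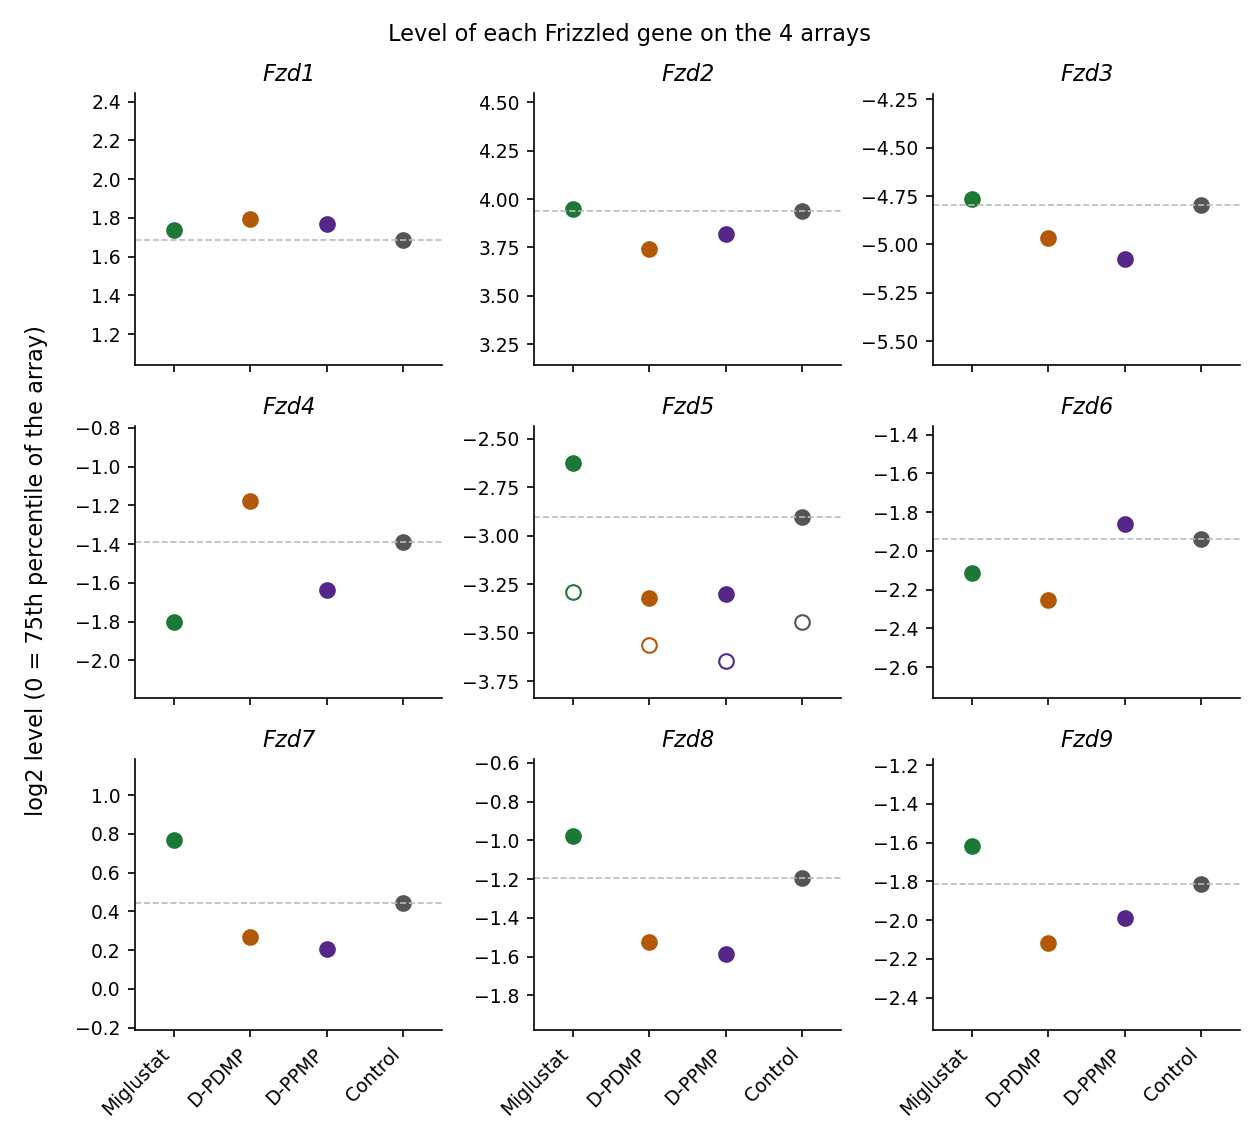
Log2 level of the 9 measured Frizzled genes on each array, where 0 is the array's 75th percentile; each panel spans the same range of 1.4 and the dashed line is the Control level. Open circles are the dimmer probe of Fzd5. In the Fzd5, Fzd7, Fzd8 and Fzd9 panels Miglustat is highest and D-PDMP and D-PPMP lie below Control, while in the Fzd4 panel Miglustat is lowest, at -1.80.

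Counted over the family, no measured member was 2-fold or 1.5-fold from Control with any inhibitor. With Miglustat 0 of 9 were 2-fold apart, where 0.388% of 14171 genes were, and 0 of 9 were 1.5-fold apart, where 2.68% were. With D-PDMP both counts were 0 of 9, against 0.325% and 2.54% of 14154 genes, and with D-PPMP 0 of 9, against 0.507% and 3.44% of 14200 genes. At such background shares, a count of 0 among 9 is near what all genes show. Under quantile normalization 1 member passed 1.5-fold, Fzd3 with D-PPMP at -0.64.

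**Figure D2:**
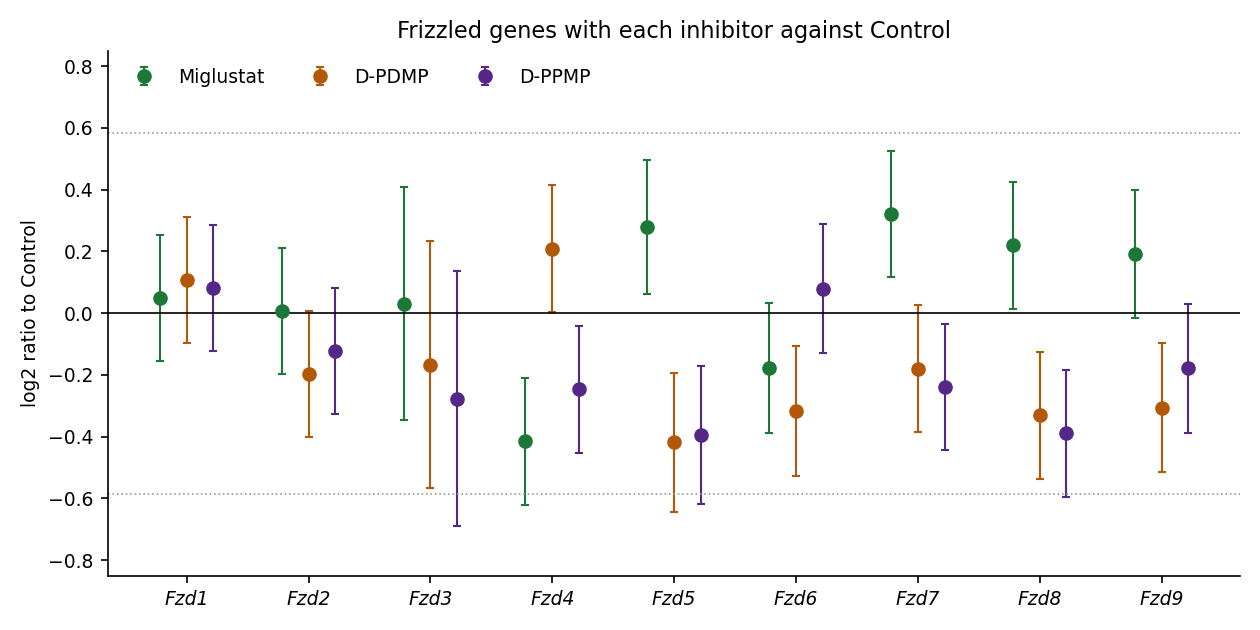
Log2 ratio to Control of each measured Frizzled gene with Miglustat, D-PDMP and D-PPMP; bars are ± 1 scanner error of the ratio on single arrays, and dotted lines mark 1.5-fold. All points lie between -0.42 and 0.32, inside both dotted lines.

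By direction alone, 7 of 9 members lay above Control with Miglustat, all but Fzd4 and Fzd6, where 44.5% of all genes did, and 2 below, where 55.5% did, and the family median was 0.05 against -0.02 for all genes. With D-PDMP 7 of 9 lay below Control, all but Fzd1 and Fzd4, where 50.4% of all genes did, and 2 above, where 49.6% did, and the median was -0.20 against 0.00. With D-PPMP 7 of 9 lay below Control, all but Fzd1 and Fzd6, where 51.5% of all genes did, and 2 above, where 48.5% did, and the median was -0.24 against -0.01. These 3 comparisons share the 1 Control array, so a deviation of a gene on that array enters all of them. Members beyond the scanner's error of their own ratio numbered 4 with Miglustat (Fzd4, Fzd5, Fzd7 and Fzd8), 5 with D-PDMP (Fzd4, Fzd5, Fzd6, Fzd8 and Fzd9) and 4 with D-PPMP (Fzd4, Fzd5, Fzd7 and Fzd8). Of all genes 19.5%, 18.3% and 22.6% were beyond their error in the 3 comparisons. Fzd4 with D-PDMP passed narrowly, at 0.209 against an error of 0.206. Under normexp only Fzd4 and Fzd7 with Miglustat, Fzd8 with D-PDMP, and Fzd4, Fzd7 and Fzd8 with D-PPMP lay beyond the same errors. The shares of all genes were not counted under normexp. The middle 90% of all genes lay between -0.31 and 0.35 with Miglustat, between -0.31 and 0.32 with D-PDMP and between -0.33 and 0.41 with D-PPMP.

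**Figure D3:**
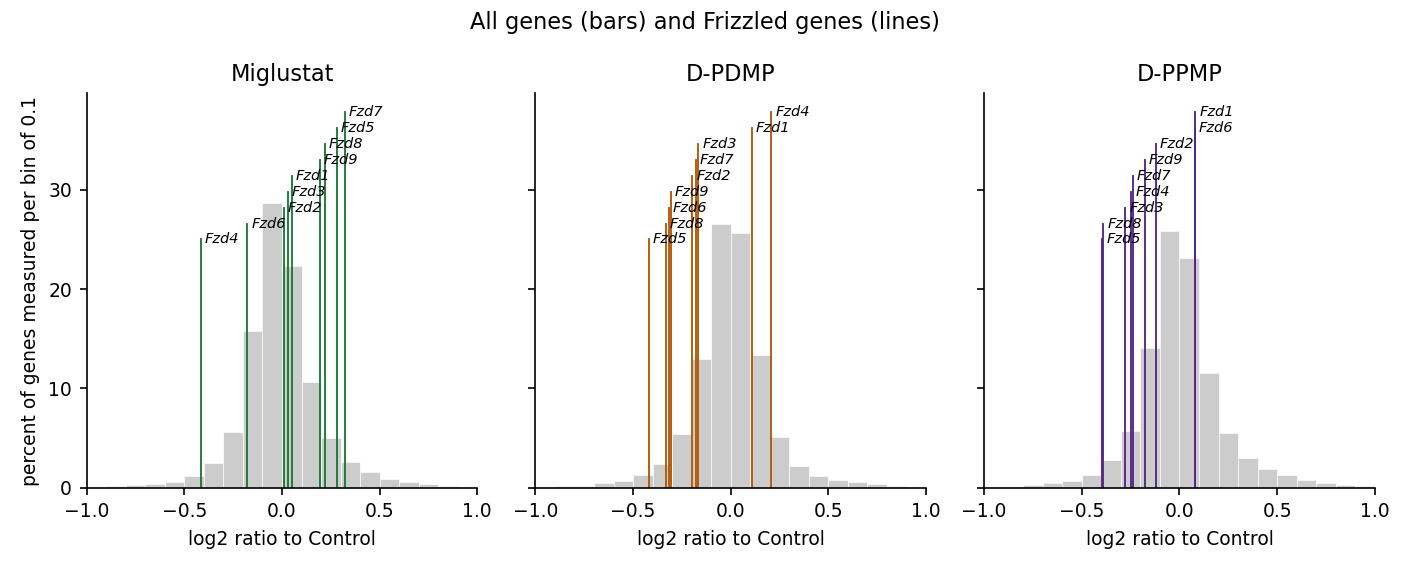
Distribution of the log2 ratio to Control over all measured genes (bars, percent per bin of 0.1) with the Frizzled genes as coloured lines, whose height only separates the names. Most members lie right of 0 with Miglustat, at a median of 0.05, and left of 0 with D-PDMP and D-PPMP, at medians of -0.20 and -0.24.

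Across the 4 arrays, the distance from a receptor's lowest to its highest array had a median of 0.50, between 0.11 for Fzd1 and 0.70 for Fzd5. The median over the 14003 genes well above background on all arrays was 0.20. A distance of at least 1.5-fold was reached by 3 of 9 members, Fzd4, Fzd5 and Fzd8, and by 9.27% of those genes. The dimmer probe of Fzd5 spanned 0.36, or 1.28-fold. Under normexp the ratios to Control lay between -0.315 and 0.08 for Fzd4, -0.18 and 0.08 for Fzd5, and -0.28 and 0.06 for Fzd8. None of the 3 then reached 1.5-fold between its highest and lowest arrays. Dim spots scatter more than bright ones, and the members were not matched to other genes by level.

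For these 3 receptors the genes with the nearest pattern over the 4 arrays were sought, by the Euclidean distance between log2 levels after each gene's own mean was taken off. The 3 nearest to Fzd5 were Mxd4, Fam43a and Wscd2, at distances of 0.04, 0.05 and 0.05, and its nearest family member was Fzd8 at 0.11. The nearest to Fzd8 were Adrb3, Slc35a2 and Arhgef39, at 0.04, 0.05 and 0.05, with Fzd5 at 0.11 and Fzd7 at 0.12. Within a distance of 0.2 lay 84 genes for Fzd5 and 211 for Fzd8. Fzd4 had 32 such genes, the nearest being Klhl30, Crmp1 and P2rx3 at 0.10, 0.10 and 0.11, and its distance from Fzd5 was 0.95. With 4 arrays, these distances describe the arrays only.

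The coreceptors came next in the pathway. Of 12 listed coreceptors and alternative receptors, 8 of 12 measured were above Control with Miglustat, where 44.5% of all genes were. With D-PDMP 3 of 12 were, against 49.6%, and with D-PPMP 4 of 11, against 48.5%. The medians were 0.06, -0.11 and -0.07. Lrp5, named here for its role after its values were seen, as is Lrp6, was at ratios of 0.03, -0.09 and -0.07 with Miglustat, D-PDMP and D-PPMP. Lrp6 was at 0.23, 0.07 and 0.02 on its brighter probe, but at 0.07, -0.15 and -0.18 on the other. With the mean over probes both later signs turned. Ror1, a receptor kinase for Wnt5a, was the only one past 1.5-fold, with levels of -0.21 with Miglustat, -1.11 with D-PDMP and -0.99 on the D-PPMP array, against -0.86 in Control. Its ratios were 0.66, or 1.58-fold higher, -0.25 and -0.13, and the Miglustat ratio was 0.45 under normexp, short of 1.5-fold. Smo, the Hedgehog pathway's member of the same receptor class, was at -0.08, 0.04 and 0.03.

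Next were genes that set how much Frizzled stays on the cell surface, the R-spondins and their partners. With Miglustat 4 of 6 measured were above Control, where 44.5% of all genes were. With D-PDMP 3 of 6 were, against 49.6%, and with D-PPMP 3 of 7, against 48.5%. None of those measured on both arrays of a comparison passed 1.5-fold. Rspo2, an R-spondin that keeps Frizzled from being removed, was at 0.15, 0.07 and -0.31, and Rspo3, another, at 0.25, -0.31 and -0.05. Lgr6, an R-spondin receptor named after its values were seen, was well above background with D-PPMP and in Control but not with Miglustat or D-PDMP. It was at least 1.89-fold lower with Miglustat, and 1.65-fold lower with D-PDMP. Such bounds set the lowest signal well above background in place of the dim spot, or its own signal where that was higher. They leave out the scanner's error of both spots, so they hold for the recorded signals and are not smallest differences. The latter held for Lgr6 with D-PDMP, at 5.24 against 4.66, so that figure is its plain ratio and not a bound. Under normexp the ratios of Lgr6 were -0.11 and -0.09, so both figures rest on the processing.

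Of the Wnt ligands and the proteins that release them, 8 of 13 measured were above Control with Miglustat, where 44.5% of all genes were. With D-PDMP 6 of 13 were, against 49.6%, and with D-PPMP 4 of 13, against 48.5%. The medians were 0.08, -0.02 and -0.05. The D-PDMP sign depends on the scaling. Wnt4 was the only one past 1.5-fold, with levels of -0.79 with Miglustat, -1.61 with D-PDMP and -1.55 on the D-PPMP array, against -1.01 in Control. Its ratio to Control was -0.60, or 1.52-fold lower, with D-PDMP, -0.54 with D-PPMP and 0.21 with Miglustat. Under normexp the D-PDMP ratio was -0.36, short of 1.5-fold.

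Of 14 listed secreted antagonists and Kremen receptors, 6 were well above background on at least 1 array. On both arrays of each comparison 3 were so, namely Sfrp2, Dkk3 and Kremen1, of which Dkk3 and Kremen1 are named after their values were seen. Sfrp2, a secreted protein with a Frizzled-like cysteine-rich domain, had levels of 3.62 with Miglustat, 2.29 with D-PDMP and 2.57 on the D-PPMP array, against 3.11 in Control. The ratios were 0.50, -0.82 and -0.55, the D-PDMP array being 1.77-fold lower, and past 1.5-fold under each of 6 other scalings. Dkk3, a Dickkopf family protein, was at 0.26, 0.07 and -0.18, and Kremen1, a receptor of Dickkopf proteins, at 0.07, -0.06 and -0.03. The other 3 were not well above background in Control and have bounds only, also named after their values were seen. Sostdc1 was at least 1.73-fold above Control with Miglustat and at least 1.18-fold with D-PDMP, Sfrp5 at least 1.46-fold with D-PDMP and at least 1.44-fold with D-PPMP, and Dkk4 at least 1.3-fold with Miglustat. Under normexp the corresponding ratios were between 0.03 and 0.11. The scanner's errors of the plain log2 ratios were 0.85 and 0.87 for Sostdc1, 0.67 and 0.67 for Sfrp5, and 1.34 for Dkk4. The Dkk4 bound rests on 1 of 2 probes.

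Inside the cell, 26 of 28 listed genes from Dishevelled to the TCF and LEF factors were measured, and none passed 1.5-fold. Their medians were -0.03 with Miglustat, 0.05 with D-PDMP and -0.02 on the D-PPMP array, and the signs with Miglustat and D-PPMP depend on the scaling. Lef1, a transcription factor that acts with beta-catenin, had levels of 0.31 with Miglustat, 1.15 with D-PDMP and 1.09 on the D-PPMP array, against 0.87 in Control. Miglustat gave its lowest array, and its ratios were -0.55, 0.29 and 0.22. Dact1, a regulator of Dishevelled, was at 0.24, 0.10 and -0.37, with a D-PDMP sign that changes between scalings.

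Of 16 genes listed as feedback targets of beta-catenin, 7 were measured, with medians of -0.03, 0.17 and 0.18, and none passed 1.5-fold. Myc, a growth regulator, was at 0.20, 0.38 and 0.44. Axin2, a widely used readout of the pathway named here for that role after its values were seen, was well above background with Miglustat and D-PDMP only. It was at least 1.23-fold and at least 1.07-fold above Control there, with scanner errors of the plain log2 ratios of 0.54 and 0.56. Both bounds rest on 1 of 2 probes, the other being well above background on no array. With the mean over both probes the ratios were 0.11 and 0.02. Under normexp its ratios on the brighter probe were 0.03 and -0.02, so that neither bound held and the D-PDMP sign turned. In the planar cell polarity and calcium branch 25, 25 and 24 of 27 listed genes were measured, with medians of 0.03, 0.00 and -0.01, both later signs changing between scalings. Prickle4, a cytoplasmic protein of planar cell polarity, was at -0.78 with Miglustat and at -0.36 with D-PDMP, and at least 2.23-fold lower with D-PPMP, where it was not well above background. The bound rests on 1 of 3 probes, the others being well above background on no array. With the mean over the 3 probes its ratios were 0.11, 0.48 and -0.02, the first pair opposite in sign, and under normexp -0.12, -0.12 and -0.17. Camk2a and Camk2b, calcium-dependent kinases, were at 0.72 and 0.67 with D-PPMP, past 1.5-fold, but the other probe of Camk2a was at 0.05 and that of Camk2b at 0.47 there. Under normexp they were at 0.14 and 0.08, and neither stayed past 1.5-fold under quantile, cyclic loess or the mean over probes.

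**Figure D4:**
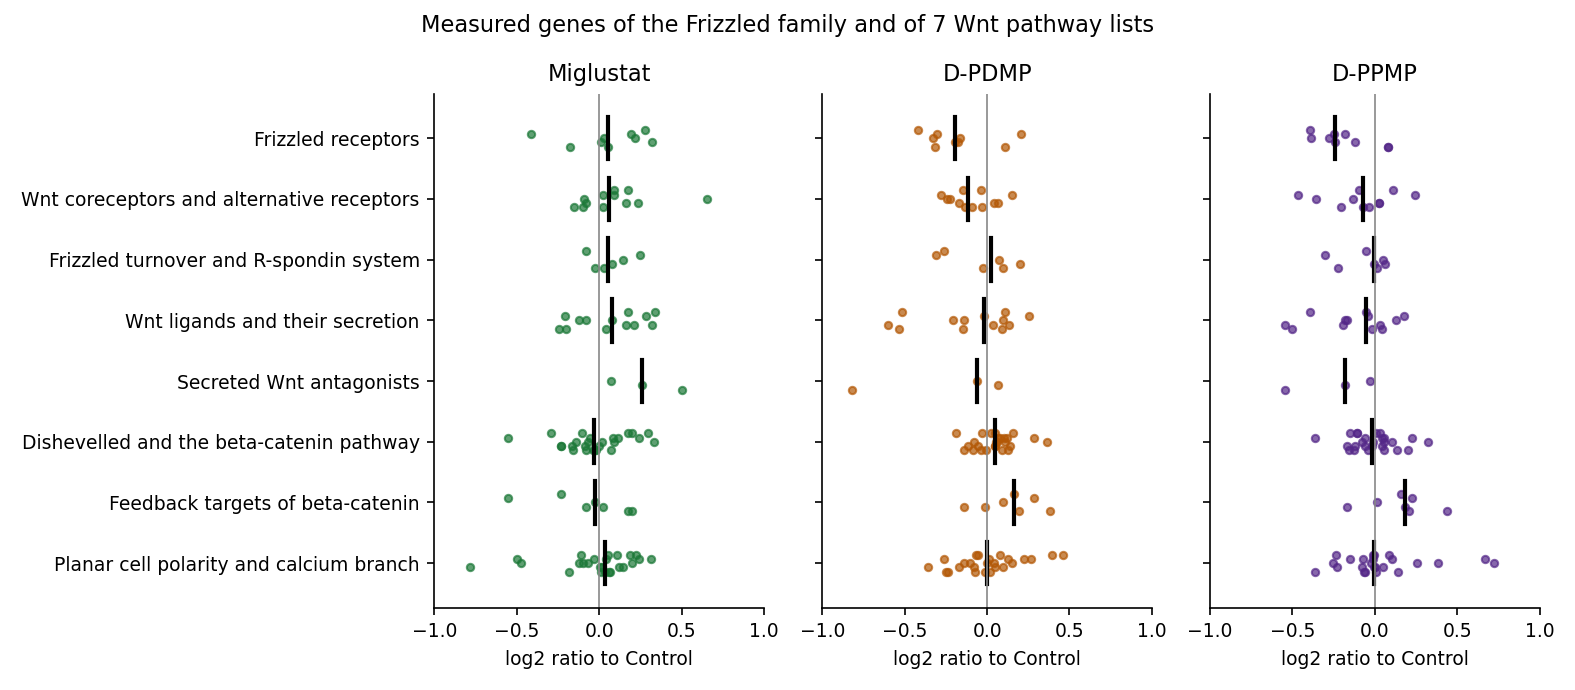
Log2 ratio to Control of each measured gene (points) in the Frizzled family and in 7 lists of Wnt pathway genes, with Miglustat, D-PDMP and D-PPMP; the black bar is the list's median. The Frizzled medians were 0.05, -0.20 and -0.24, and those of all 7 lists together 0.03, 0.01 and -0.02.

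Taken as 1 pool, the pathway lists had 89, 89 and 88 measured genes, of which 52, 45 and 37 were above Control on the Miglustat, D-PDMP and D-PPMP arrays, where 44.5%, 49.6% and 48.5% of all genes were. Past 1.5-fold in either direction were 2 genes in each comparison, where 2.68%, 2.54% and 3.44% of all genes were, so that these counts are near the background. Ugcg, which encodes the enzyme that the compounds inhibit, was at 0.09, 0.08 and 0.00 on its brightest probe, so its mRNA differed from Control by less than the scanner's error. The arrays measure mRNA and not receptor protein at the cell surface.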

How the data were processed

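Total RNA of 4 cultures was extracted with a column kit and labelled with Cy3, per the labels. The deposited spot intensities come from Agilent Feature Extraction 12.1.1.1, per the submitters' processing notes. Its processed signal is a background-subtracted intensity, not scaled between arrays, per the file headers. The authors' deposited log2 table matched log2 of that signal, floored at 1, minus the array's 75th percentile within 0.02 for at least 99.989% of probes. Its column medians were -4.00, -4.00, -3.89 and -4.10 for Miglustat, D-PDMP, D-PPMP and Control, and its making is not given in the sources used here.

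Control spots and spots flagged as outliers (67, 66, 85 and 70 of 59305 in the same order of groups) were left out, and log2 signals of a probe were averaged. The 75th percentile, a signal of 191, 189, 189 and 183, was subtracted. Of 56605 probes, 32994 (58.3%) matched a gene by accession in a RefSeq table of GRCm38.p6, used for names because the files name build mm9. A gene takes its brightest probe. Differences between 2 arrays are log2 ratios, called only where both spots are well above background. No test was possible with 1 array per group, and whether the cultures were separate is not stated. The call rule was tested on simulated data. Members and lists were chosen with earlier results of these data known. Named are all members, up to 4 members of each list at 1.5-fold or else the 2 farthest, the 3 nearest patterns, the osteoblast markers, and Smo and Ugcg by design. Markers of other cell types with values, and genes so marked, were named after their values were seen. Alternatives tried were normexp (offset 50), cyclic loess and quantile normalization, another percentile base, the authors' table, 2 other filters on dim probes and the mean over probes. Normexp was planned on mean spot signals and run on median ones, the column the files hold, a choice made after seeing the data. Python 3.11.15, pandas 2.3.3, R 4.3.3 and limma 3.58.1 were used.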

Additional observations from a re-analysis of the deposited data

How the results depend on the processing

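No paired analysis was possible because each group has 1 array, and no array could be left out. Over 8 alternatives, the counts of Frizzled genes at 2-fold stayed 0 with each inhibitor, and those at 1.5-fold stayed 0 except for 1 gene with D-PPMP under quantile normalization, Fzd3, a spot near background, and the cause was not tested. The family medians kept their signs, between 0.04 and 0.07 with Miglustat, -0.35 and -0.17 with D-PDMP, and -0.27 and -0.12 with D-PPMP. Of 216 values of single receptors under the alternatives, 6 differed in sign, those of Fzd3 with Miglustat and Fzd6 with D-PPMP. All 6 arose under normexp, quantile and cyclic loess. The 2 other filters left every one of these ratios unchanged, and the mean over probes could change only Fzd5. The authors' table is nearly the same quantity, and another percentile base shifts all genes of an array alike. Most of the 216 values could therefore hardly differ in sign. The normexp correction moved 1 value by more than the scanner's error, the D-PDMP ratio of Fzd5, which was -0.16. The offset shrinks ratios of dim spots by construction, and Fzd8 with Miglustat was 0.06 at the lowest. Among pathway genes the 1.5-fold calls of Ror1, Wnt4, Camk2a, Camk2b and Prickle4 did not hold under normexp, and that of Sfrp2 did. Signal over background limits Fzd3 and Fzd10 most. No scaling moved the median of all measured genes by over 0.1.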
